A study of Saccharomyces cerevisiae with 6 samples.

Results

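The genes described here are 10 genes of gluconeogenesis in budding yeast: the enzyme genes PCK1, FBP1 and MDH2, the carrier and anaplerotic genes SFC1, PYC1 and PYC2, and the activator genes CAT8, SIP4, ADR1 and RDS2. They were chosen by name, as the listed enzymes of glucose synthesis and oxaloacetate supply with their transcriptional activators. All 10 were measured, each by 1 probe, among 4060 named genes and 6226 features in all. Transcript levels came from 6 shaken cultures of Saccharomyces cerevisiae, 3 of the flor strain P3_Kan and 3 of the wine strain K1_Kan, each hybridised to a 1-colour array. Flor yeasts live as a film on fortified wine after fermentation, where ethanol and glycerol are the carbon sources, and wine yeasts ferment the grape sugar. P3_Kan, made from P3-D5, is haploid, of mating type alpha and carries a KanMx drug-resistance cassette. K1_Kan, from K1-280-2B, is haploid and of mating type a, and the labels do not explain the Kan in its title. All cultures grew at 28 °C in a synthetic wine-like medium and were harvested once the optical density (600 nm) reached 1, without a velum in either strain. Each type is represented by 1 strain, so that strain, mating type and flor or wine origin differ together and cannot be told apart.

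Gluconeogenesis makes hexose phosphate from compounds such as ethanol, acetate and lactate. Most of its steps are glycolytic steps run backwards. The exceptions include the step from oxaloacetate to phosphoenolpyruvate, catalysed by phosphoenolpyruvate carboxykinase. They also include that from fructose bisphosphate to fructose phosphate, catalysed by fructose bisphosphatase. Where lactate or pyruvate is the source, the carboxylation of pyruvate to oxaloacetate is a further exception. In yeast growing on glucose the genes of phosphoenolpyruvate carboxykinase and fructose bisphosphatase, PCK1 and FBP1, are repressed. When glucose runs out, the Snf1 kinase acts through the zinc-cluster activators Cat8 and Sip4, which bind carbon source response elements, while Adr1 activates genes of ethanol, glycerol and fatty acid use and Rds2 acts on several gluconeogenic promoters.

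Of the 10 genes, 6 were lower in the flor strain, namely PYC1, ADR1, MDH2, SIP4, SFC1 and PCK1, and 2 were higher, FBP1 and PYC2. CAT8 and RDS2 did not pass the test. The lower genes ran from a log2 change of −1.61 for PYC1, a 3.06-fold difference, to −0.25 for PCK1, a 1.19-fold difference. The 2 higher genes were FBP1 at 0.74 and PYC2 at 0.63. The count of 6 of 10 lower at a limma adjusted p under 0.05 stands beside 23.6% of all features, and the count of 2 of 10 higher beside 20.5%. In either direction, 8 of 10 passed, against 44.1% of all features. In 8 of the 10 genes, the same 8 that passed, the 3 values of one strain did not overlap those of the other. This was so for 56.1% of all features. The median change over the 10 genes was −0.36, and over all features it was −0.02. Changes are log2 intensities of the flor strain minus those of the wine strain. The arrays had been normalized to nearly one distribution, so each change is relative to the other genes, and less transcript per cell cannot be told apart from fewer cells expressing it.

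The mating-type markers followed the labels, with all 7 a-specific genes lower and all 4 alpha-specific genes higher in the flor strain. Median log2 intensities of the 6 arrays lay between 8.33 and 8.35, and Pearson correlations across features were 0.9971 to 0.9975 within the wine strain. Within the flor strain they were 0.9877 to 0.9971, and the lowest involved flor replicate 1. The arrays came from 2 slides, slide 1 with flor replicate 3 and wine replicate 2 and slide 2 with the other 4. The labels call the cultures biological replicates, and those of replicate 2 of both strains also carry a technical replicate number, 2, whose counterpart was not analysed here. They say no more of the cultures' origin, so the p-values reflect only the spread among these 6. The number of arrays, 3 per strain, limits the precision.

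**Figure D1:**
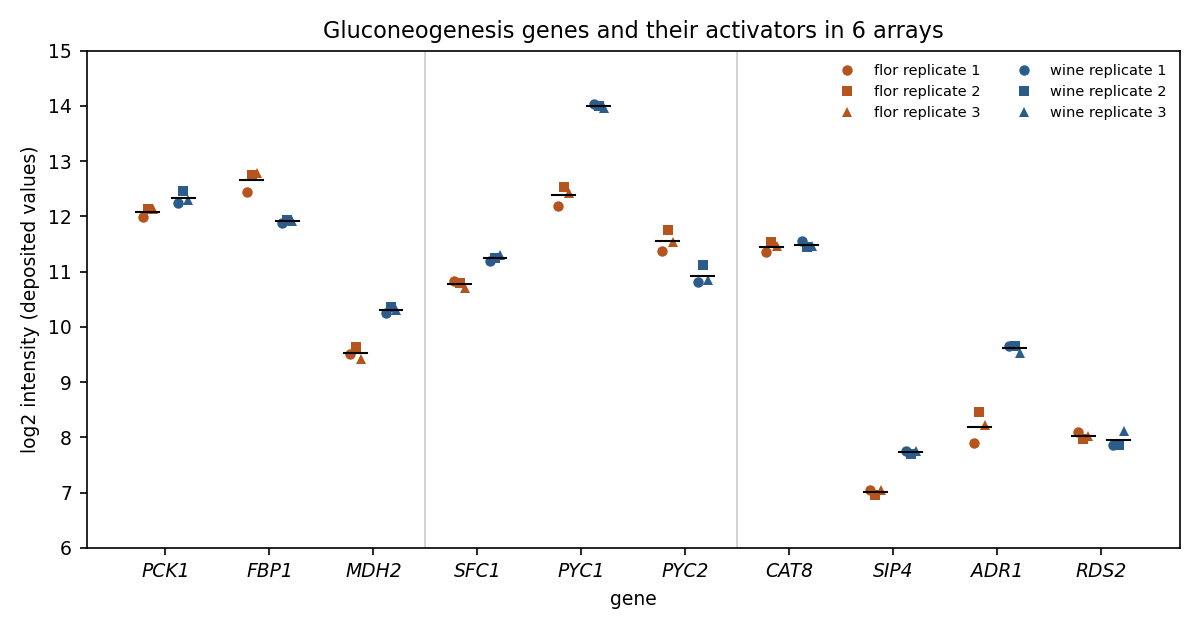
Deposited log2 intensity (vertical axis) of the 10 genes (horizontal axis) in each array, orange for flor and blue for wine, with a symbol for each replicate and a bar at each mean. The strains are farthest apart for PYC1 and ADR1 and overlap for CAT8 and RDS2; heights of different genes come from different probes and are not comparable.

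Among the enzymes of glucose synthesis, FBP1 and PCK1, which encode the paired enzymes specific to the pathway, went in opposite directions. FBP1 encodes fructose bisphosphatase, which reverses the phosphofructokinase step. Its log2 intensities were 12.44, 12.75 and 12.79 in flor replicates 1, 2 and 3 and 11.88, 11.94 and 11.93 in wine replicates 1, 2 and 3. Every flor culture was above every wine culture. The mean was 12.66 ± 0.19 against 11.92 ± 0.03 (SD, n = 3 cultures a strain, here and below), a log2 change of 0.74 (SE 0.10). The level of FBP1 in the flor strain was thus 1.67-fold that in the wine strain (95% interval 1.42 to 1.97, limma adjusted p = 0.00051). With any single array left out, the change stayed between 0.68 and 0.85.

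PCK1 encodes phosphoenolpyruvate carboxykinase, the entry step from oxaloacetate. Its values were 12.00, 12.13 and 12.13 in the flor cultures and 12.25, 12.45 and 12.30 in the wine cultures, in the same order of replicates. The flor values all lay below the wine values, by as little as 0.12 between the nearest pair. PCK1 was 1.19-fold lower in the flor strain (1.04 to 1.36), at 12.09 ± 0.08 against 12.33 ± 0.11 (limma adjusted p = 0.0443). This call was lost whichever array was left out, with adjusted p of 0.053, 0.061 and 0.074 without flor replicates 1, 2 and 3 and 0.063, 0.16 and 0.096 without wine replicates 1, 2 and 3. On slide 2 alone the adjusted p was 0.229, and with a trend on coding length removed the change was −0.15 (adjusted p = 0.152). For these 2 genes of steps specific to gluconeogenesis, the within-array difference shows how unequally they moved. FBP1 minus PCK1 was 0.44, 0.63 and 0.65 in the flor arrays and −0.36, −0.51 and −0.37 in the wine arrays. The sign of that difference depends on the probes. A constant offset between the probes cancels in its shift of 0.99 between strains. Each gene had 1 probe, and whether these respond alike in both strains was not tested. An exact two-sided permutation test gave p = 0.1, the smallest that 3 arrays against 3 allow.

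MDH2 encodes the cytosolic malate dehydrogenase, which supplies oxaloacetate to PCK1 and also serves the glyoxylate cycle. The flor cultures gave 9.52, 9.64 and 9.42 and the wine cultures 10.25, 10.37 and 10.30, so that the strains were separated by more than the whole range within either. The gene was 1.72-fold lower in the flor strain (1.50 to 1.96), at 9.52 ± 0.11 against 10.30 ± 0.06 (log2 change −0.78, SE 0.08, limma adjusted p = 0.000124). The mitochondrial and peroxisomal malate dehydrogenase genes are of related sequence, and their changes were smaller. MDH1, of the mitochondrial matrix, had a change of −0.36 and MDH3, of the peroxisome, one of 0.29 (limma adjusted p = 0.0273 and 0.0411). MDH1 lost its call when wine replicate 1, 2 or 3 was left out (0.076, 0.058 and 0.10), and MDH3 without those or flor replicate 3 (0.10, 0.059, 0.15 and 0.14).

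The pyruvate carboxylase genes moved in opposite directions, PYC1 down and PYC2 up in the flor strain. PYC1 and PYC2 encode cytosolic isoenzymes that carboxylate pyruvate to oxaloacetate, and so feed both the tricarboxylic acid cycle during growth on sugar and gluconeogenesis from pyruvate or lactate. PYC1 gave 12.19, 12.54 and 12.42 in the flor cultures and 14.04, 13.99 and 13.96 in the wine cultures. The wine values lay within 0.08 of each other and at least 1.42 above any flor value. PYC1 was 3.06-fold lower in the flor strain (2.62 to 3.57), at 12.38 ± 0.17 against 14.00 ± 0.04 (limma adjusted p = 3.55e-06), and 2.31% of all features had a change larger in size.

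PYC2 moved the other way. It gave 11.37, 11.76 and 11.53 in the flor cultures against 10.82, 11.12 and 10.85 in the wine cultures. All flor values were higher, although flor replicate 1 exceeded wine replicate 2 by only 0.25. PYC2 was 1.54-fold higher in the flor strain (1.27 to 1.87), at 11.56 ± 0.19 against 10.93 ± 0.17 (limma adjusted p = 0.0032). The difference PYC1 minus PYC2 was 0.82, 0.78 and 0.89 in the flor arrays and 3.22, 2.87 and 3.11 in the wine arrays, a shift of −2.24 (exact two-sided permutation p = 0.1, the smallest possible). The 2 genes are close paralogs, and how far each probe also binds the other transcript is not known from these values.

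SFC1 encodes the mitochondrial carrier that exchanges succinate for fumarate, through which succinate from the glyoxylate cycle enters mitochondria and fumarate leaves for glucose synthesis. Its values were 10.83, 10.79 and 10.71 in the flor cultures and 11.19, 11.26 and 11.30 in the wine cultures, with no overlap. The gene was 1.39-fold lower in the flor strain (1.23 to 1.57), at 10.78 ± 0.06 against 11.25 ± 0.06 (log2 change −0.47, limma adjusted p = 0.00125).

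**Figure D2:**
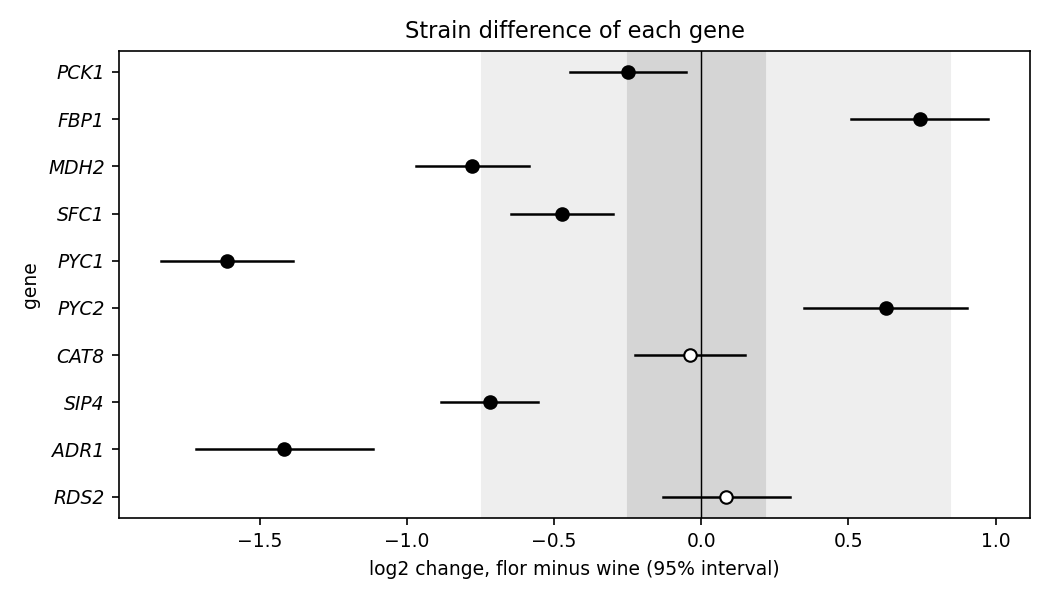
Log2 change, flor minus wine, of the 10 genes with 95% intervals (lines), filled where the limma adjusted p is under 0.05. The dark band holds the middle of all 6226 features, from the 25th to the 75th percentile (−0.25 to 0.22), and the light band reaches from the 5th to the 95th (−0.74 to 0.84); PYC1, ADR1 and MDH2 lie outside the light band.

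The activator genes differed among themselves. CAT8 encodes the main activator of the pathway through carbon source response elements. It stood at 11.35, 11.54 and 11.47 in the flor cultures and 11.56, 11.44 and 11.47 in the wine cultures, and the strains overlapped. The log2 change was −0.04 (95% interval −0.23 to 0.15, limma adjusted p = 0.74), so a difference of more than 1.17-fold towards a lower flor level lay outside the interval. SIP4 encodes another activator of the same elements, whose own gene is a known target of Cat8. Its values were 7.04, 6.96 and 7.04 in the flor cultures and 7.76, 7.69 and 7.75 in the wine cultures, with each strain tightly grouped. SIP4 was 1.65-fold lower in the flor strain (1.47 to 1.85), at 7.01 ± 0.05 against 7.73 ± 0.03 (limma adjusted p = 8.21e-05). Its mean intensity ranked at the 28.8th percentile of features, where background can compress a fold. SIP4 minus CAT8 was −4.31, −4.58 and −4.43 in the flor arrays and −3.80, −3.75 and −3.73 in the wine arrays, a shift of −0.68 (exact two-sided permutation p = 0.1, the smallest possible).

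ADR1 encodes a zinc-finger activator of ADH2 and of genes for glycerol and fatty acid use. The flor cultures gave 7.90, 8.46 and 8.22 and the wine cultures 9.65, 9.65 and 9.53. The lowest wine value was 1.07 above the highest flor value. ADR1 was 2.67-fold lower in the flor strain (2.17 to 3.29), at 8.19 ± 0.28 against 9.61 ± 0.07 (log2 change −1.42, SE 0.13, limma adjusted p = 5.09e-05), and 2.92% of features changed more. It was also the gene with the widest spread among the flor cultures, 0.56, of which flor replicate 1 was the lowest. Without flor replicate 1 the change was −1.27, and without any other single array it lay between −1.55 and −1.40. RDS2, which encodes a zinc-cluster regulator of gluconeogenic genes, stood at 8.10, 7.97 and 8.03 in the flor cultures and 7.87, 7.85 and 8.12 in the wine cultures. Wine replicate 3 was above all flor cultures and the other wine cultures below them, and the log2 change of 0.08 did not pass the test (95% interval −0.13 to 0.30, limma adjusted p = 0.503).

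**Figure D3:**
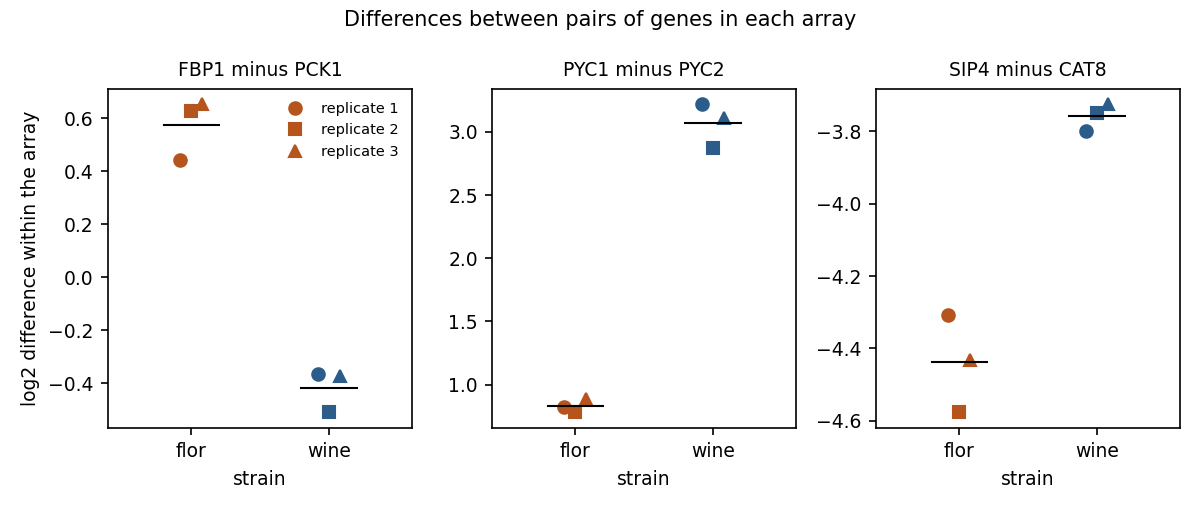
Difference in log2 intensity between 2 genes within each array (vertical axis) for FBP1 minus PCK1, PYC1 minus PYC2 and SIP4 minus CAT8, by strain (horizontal axis), with a symbol per replicate and a bar at the mean. In each pair the strains do not overlap, and the means shift by 0.99, −2.24 and −0.68.

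The spread among cultures was wider in the flor strain for 8 of the 10 genes, the exceptions being PCK1 and RDS2. For SFC1 the ranges were nearly equal (0.117 against 0.116). Neither this count nor the next was made over all features. Across all features flor replicate 1 also had the lowest correlations within its strain (0.9877 and 0.9903). In 6 of the 10 genes, ADR1, FBP1, PYC1, CAT8, PCK1 and RDS2, flor replicate 1 lay farthest from the middle flor culture. Flor replicate 1 was below the mean of flor replicates 2 and 3 by 0.44 for ADR1, 0.33 for FBP1, 0.28 for PYC1, 0.27 for PYC2, 0.16 for CAT8 and 0.13 for PCK1. It was above that mean by 0.10 for RDS2 and 0.08 for SFC1. Apart from PCK1, the 7 genes that passed did so with each array left out in turn, at an adjusted p of at most 0.0192. The within-slide changes had the same sign on both slides for every gene other than CAT8. They were −1.57 on slide 1 and −1.63 on slide 2 for PYC1, −1.42 and −1.41 for ADR1, −0.94 and −0.70 for MDH2, 0.84 and 0.69 for FBP1, and 0.41 and 0.73 for PYC2.

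**Figure D4:**
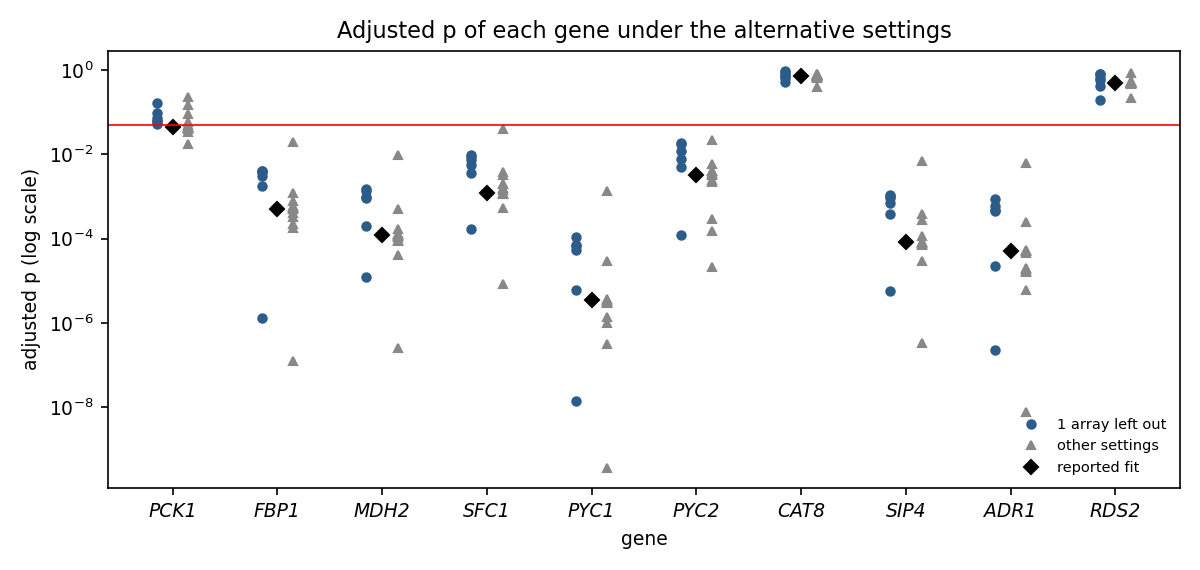
Adjusted p of each gene (vertical axis, log scale; red line at 0.05) in the reported fit (diamonds), with 1 array left out (circles) and under the other fits of a difference from 0 (triangles). In the fits plotted PCK1 lies on both sides of the threshold, CAT8 and RDS2 stay above it and the other 7 genes stay below it; the test against a log2 change of 0.5, not plotted, was missed by FBP1 (0.196), MDH2 (0.0565), SFC1 (1), PYC2 (1) and SIP4 (0.0831) among those 7.

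The genes with the most similar profiles over the 6 arrays were found by the distance between values centred on each gene's mean, among 4050 named genes. For FBP1 they were SNZ3, of vitamin metabolism, ADE4, of purine synthesis, and the sodium pump gene ENA1, at log2 distances of 0.08, 0.12 and 0.15. For PCK1 they were BCK1, STV1 and PEX21, at 0.05, 0.05 and 0.09, and for SIP4 they were PST2, ARO4 and SEC21, at 0.03, 0.06 and 0.09. None of these 9 belongs to the lists of related genes described next.

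Genes that Cat8 and Sip4 are known to activate, other than the 10 above, were lower in the flor strain in 12 of 13 cases, and the median change was −1.79 (−1.88 on slide 1 and −1.74 on slide 2). Over all features 23.6% were lower and 20.5% higher. ADH2, the ethanol-oxidising alcohol dehydrogenase gene, changed by −4.73, YAT1, a carnitine acetyltransferase gene, by −3.53, the glycerol symporter gene STL1 by −3.37 and the isocitrate lyase gene ICL1 by −2.71. ICL1, of the glyoxylate cycle, gave 11.15, 11.40 and 11.41 in the flor cultures and 14.04, 14.06 and 14.01 in the wine cultures. All 12 passed with every single array left out. The exception was REG2, a regulatory subunit gene of the Glc7 phosphatase, which was higher by 0.27 (limma adjusted p = 0.0361). REG2 lost its call when flor replicate 3 (0.060) or any of wine replicates 1, 2 and 3 (0.056, 0.090 and 0.14) was left out, and with slide as a block (0.056), so 0 were then higher. The 12 lower genes stood 1.54-fold (MLS1, malate synthase) to 26.5-fold (ADH2) below the wine strain, and CAT8 itself overlapped between the strains.

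Among 14 measured genes that Adr1 is known to activate, the flor strain had 8 lower and 3 higher, with a median of −0.58. The shares of all features were 23.6% lower and 20.5% higher. This list shares ADH2, ACS1 and ICL2 with the one before, which is 21.4% of its genes and 23.1% of the Cat8 and Sip4 list. Besides ADH2, the acetate transporter gene ADY2 (−2.33) and ICL2 (−2.08), a mitochondrial methylisocitrate lyase gene, had the largest decreases. ADY2 was dim in the flor strain, at 6.15 ± 0.16 against 8.48 ± 0.09. The higher genes were SPS19 (1.75) and POT1 (1.39), both of peroxisomal fatty acid breakdown, and the mitochondrial glycerol phosphate dehydrogenase gene GUT2 (0.48, limma adjusted p = 0.0444). The peroxisomal genes of the list did not move together. PXA1, a subunit gene of the fatty acid importer, was lower by a log2 change of −0.75 and POX1, the acyl-CoA oxidase gene, by −0.49 (limma adjusted p = 0.000193 and 0.0151), whereas FOX2 (−0.04) and the catalase gene CTA1 (0.11) did not pass (0.815 and 0.391). Without wine replicate 2, neither POX1 (0.066) nor ALD4 passed. ALD4 was lower by 0.66 in the reported fit (limma adjusted p = 0.0118, and 0.051 without that array). GUT2 passed without flor replicate 1 (0.00019) but did not pass without any 1 of the other arrays (0.056 to 0.16) or with slide as a block (0.053). With single arrays left out, 6 to 8 genes were lower and 2 or 3 higher.

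**Figure D5:**
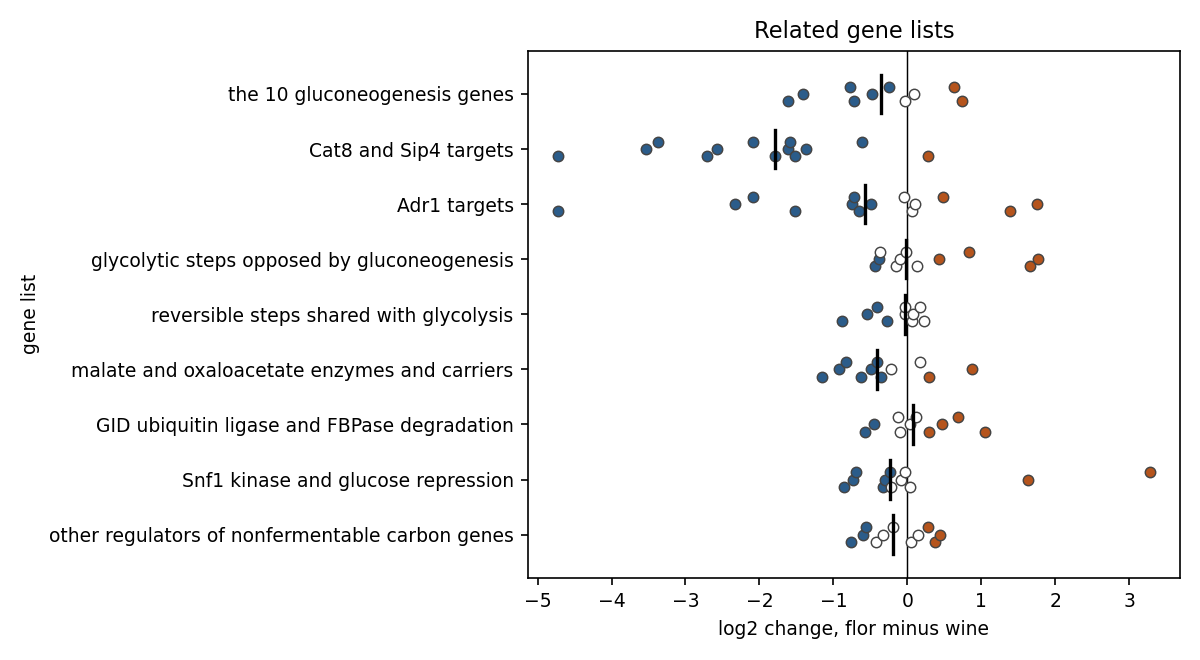
Log2 change, flor minus wine (horizontal axis), of each measured gene in the 10-gene set and 8 related lists (rows), blue where lower, orange where higher and white where the limma adjusted p was not under 0.05, with a bar at each list's median. The Cat8 and Sip4 targets lie farthest to the left, with a median of −1.79, and the glycolytic lists have medians of −0.01 and −0.03.

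Genes of glycolytic steps opposed to gluconeogenesis, with hexose phosphorylation and the enzymes of the regulatory bisphosphate included, had calls in both directions. Of 11 genes, 4 were higher and 2 lower, with a median of −0.01, beside 20.5% of all features higher and 23.6% lower. The count of lower genes was thus near the share of all features. The higher genes were the hexokinase gene HXK2 (1.77), PFK27 (1.66), which encodes an enzyme making the bisphosphate that activates phosphofructokinase and inhibits fructose bisphosphatase, EMI2 (0.83), a glucokinase paralog, and FBP26 (0.43), which encodes the enzyme degrading that bisphosphate. HXK2 gave 10.99, 10.94 and 10.95 in the flor cultures and 9.37, 9.18 and 9.03 in the wine cultures. PFK27 was dim in the wine strain, at 8.01 ± 0.16 in the flor strain against 6.35 ± 0.05. PFK1 (−0.15) and PFK2 (−0.09), the subunits of phosphofructokinase opposed by FBP1, and the pyruvate kinase gene CDC19 (−0.01) did not pass (limma adjusted p = 0.318, 0.678 and 0.963). The lower genes were PFK26 (−0.39) and PYK2 (−0.43), and the strains overlapped for PYK2. PFK26 did not pass without wine replicate 2 (0.068), and PYK2 lost its call in the absence of flor replicate 3 (0.089), wine replicate 2 (0.086) or wine replicate 3 (0.12). This left 1, 0 and 1 lower in those 3 cases.

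Of the 10 genes for the reversible steps that glycolysis and gluconeogenesis share, 4 were lower and 0 higher, with a median of −0.03. Among all features 23.6% were lower and 20.5% higher. The 4 lower genes were the enolase genes ENO1 (−0.89) and ENO2 (−0.42) and the glyceraldehyde phosphate dehydrogenase genes TDH3 (−0.55) and TDH2 (−0.27). ENO1 is the enolase gene known for its role in glucose synthesis and ENO2 for its role in glycolysis. ENO1 stood at 14.12 ± 0.36 against 15.01 ± 0.03 (limma adjusted p = 0.00188). With wine replicate 1, 2 or 3 left out, ENO2 (0.10, 0.17 and 0.073) and TDH2 (0.087, 0.10 and 0.091) lost their calls, and TDH2 did so too when flor replicate 3 was left out (0.057), so that 2 were lower without any 1 of the wine arrays. No gene was higher at an adjusted p under 0.05, though with the coding length trend removed 1 was. Enolase and dehydrogenase isogenes are highly similar, and their probes may not separate them.

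Around malate and oxaloacetate, 7 of 11 genes were lower and 2 higher, with a median of −0.41, beside 23.6% of all features lower and 20.5% higher. AAT2, the cytosolic aspartate aminotransferase gene, fell by 1.15 on the log2 scale, DIC1, the mitochondrial dicarboxylate carrier gene, by 0.92 and the fumarase gene FUM1 by 0.83. AAT2 gave 10.34, 10.98 and 11.01 in the flor cultures and 11.86, 12.03 and 11.90 in the wine cultures. The citrate carrier gene CTP1 was higher by 0.87. MDH3 was also higher, and its losses of call, given above, left 1 gene higher without flor replicate 3 or any 1 wine array. The count of lower genes was 5 to 8 with single arrays left out. MAE1 (−0.49) lost its call without wine replicate 2 or 3 (limma adjusted p = 0.061 and 0.069), and MDH1 without any 1 wine array.

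The GID complex is the ubiquitin ligase that marks fructose bisphosphatase, phosphoenolpyruvate carboxykinase and cytosolic malate dehydrogenase for destruction once glucose returns. Of 10 measured genes of this complex and its partners, the flor strain had 4 higher and 2 lower, with a median of 0.07. Of all features, 20.5% were higher and 23.6% lower, so the count of lower genes was near that share. VID24, which encodes the subunit that recognises these enzymes and is made when glucose is added, was 2.06-fold higher (1.68 to 2.52), at 7.90, 8.19 and 7.89 in the flor cultures and 6.90, 6.77 and 7.19 in the wine cultures (limma adjusted p = 0.000247). The ubiquitin-conjugating enzyme gene UBC8 (0.68), FYV10 (0.47) and RMD5 (0.29) were also higher, and UBP14 (−0.57) and VID28 (−0.45) were lower. RMD5 missed the threshold when flor replicate 3 (0.064), wine replicate 1 (0.12) or wine replicate 2 (0.12) was left out.

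In the Snf1 kinase and glucose repression list, the repressor genes MIG2 (3.28) and MIG1 (1.63) were higher and 6 of 12 genes lower, with a median of −0.23. The count of 2 higher was near the share of all features (20.5%), and 23.6% of all features were lower. MIG1 and MIG2 encode zinc-finger repressors of glucose-repressed genes, FBP1 among them. MIG2 was 9.72-fold higher (8.09 to 11.7), at 9.07, 9.48 and 9.07 in the flor cultures and 5.92, 5.96 and 5.90 in the wine cultures, close to the dimmest values on the arrays, where a fold can be understated. The corepressor gene TUP1 (−0.86), the kinase gene SNF1 (−0.73) and the corepressor gene CYC8 (−0.70) led the lower genes. The other 3 lower genes were GAL83, SIP2 and ELM1, and all 3 lost their calls without any 1 wine array (0.061 to 0.13). ELM1 (0.052) and SIP2 (0.057) also lost them without flor replicate 2. Without flor replicate 3, GAL83 (0.065) and ELM1 (0.069) did so. Among 11 other regulators of genes for nonfermentable carbon sources, GIS1 (−0.77), HAP5 (−0.61) and HAP2 (−0.55) were lower and OAF1 (0.44), RGT1 (0.38) and HAP4 (0.27) higher, with a median of −0.20. Both counts, 3 of 11, were near the shares of all features, 23.6% lower and 20.5% higher. RGT1 and HAP4 both lost their calls without flor replicate 2 (0.077 and 0.11), flor replicate 3 (0.083 and 0.082), wine replicate 1 (0.083 and 0.15) or wine replicate 2 (0.083 and 0.12), which left 1 gene higher. RGT1 also lost its call without wine replicate 3 (0.087).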

How the data were processed

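Total RNA from 6 yeast cultures, 3 per strain, was measured on 1-colour Agilent arrays with Cy3, per the labels' protocols. The authors deposited 1 log2 intensity per probe and array, for 6227 probes. The log2 scale was read from the values (5.29 to 15.88). The columns have nearly one distribution, so they were normalized before deposit. R 2.14.2 and limma are named in the submitters' processing notes, whereas the sources used here give no background correction, normalization method or filter. Detection calls and scanner files were not used here.

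Probes were named through the platform annotation, which can be old: 4061 had 1 symbol, 0 several and 2166 none. With the R64 gene table, 125 symbols were updated, 4053 matched and 8 were kept. The 2 probes of FDH2 were averaged, leaving 6226 features, with no filter. Strain means were compared over the 6 arrays by limma 3.58.1 (lmFit, eBayes, two-sided; R 4.3.3), and p-values were adjusted by Benjamini and Hochberg over all features (threshold 0.05). Intervals of 95% come from moderated standard errors. Differences between pairs of genes used exact permutation over arrays. The fit was tested on simulated data.

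All 10 genes are named, and from each other list up to 4 genes with the largest changes that passed and did not overlap between strains, a few fixed glycolytic and malate dehydrogenase genes, and the nearest profiles of PCK1, FBP1 and SIP4. MLS1, and further genes that complete counts, were named after their values were seen. The genes and lists were chosen with earlier results of these data known. The alternatives were other scalings, filters on dim features, variance models, array weights, slide, replicate number, removal of each array's loess trend on coding length (span 0.5), thresholds, single probes and the omission of each array. Same-numbered cultures of the strains correlated in their deviations from the strain means at 0.372, 0.228 and 0.0507.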

Additional observations from a re-analysis of the deposited data

How the results depend on the processing

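Of 198 refits of the 10 genes, 180 left the side of the threshold unchanged, and none of the 8 genes that passed changed sign. PCK1 lost its call in 13 of 20, at a change of −0.25 without the dimmest 25% or 50% of features, with an intensity trend, at an adjusted p under 0.01 and against a log2 change of 0.5, at −0.21 on slide 2 alone, at −0.15 with the length trend removed, and at −0.29 to −0.19 with single arrays left out. A test against a log2 change of 0.5 was missed by FBP1 (0.74), MDH2 (−0.78), SFC1 (−0.47), PYC2 (0.63) and SIP4 (−0.72), which left 0 of the 10 genes higher and 2 lower. Over all features the counts higher and lower were 705 and 838 without the dimmest 50%, where fewer features are tested, 701 and 723 on slide 2 alone, where fewer arrays are, 841 and 920 at an adjusted p under 0.01, and 297 and 222 against a log2 change of 0.5. On slide 2 alone the counts higher fell from 4 to 2 for the GID list, 3 to 0 for the other regulators, 2 to 1 for the malate list and 1 to 0 for the Cat8 and Sip4 targets, and the counts lower from 6 to 3 for the Snf1 list, 7 to 4 for the malate list, 2 to 0 for the opposed glycolytic steps and 4 to 2 for the reversible steps. With slide as a block REG2 (0.056), GUT2 (0.053), SIP2 (0.053) and HAP4 (0.06) lost their calls, which left 0 Cat8 and Sip4 targets, 2 Adr1 targets and 2 other regulators higher and 5 genes of the Snf1 list lower. On slide 1 alone, a comparison added after seeing the data, the shift was 1.16 for FBP1 minus PCK1 and −1.99 for PYC1 minus PYC2. SIP4 and RDS2 were among the dimmest 50% and have no value in that setting. The labels do not say that a replicate number marks a shared batch, so the reported fit does not pair the cultures by number. The correlations for numbers 1 and 2 (0.372 and 0.228) were the highest of any flor culture with any wine culture. That for number 3 (0.0507) was below those of flor replicate 3 with wine replicate 2 of its slide (0.186) and flor replicate 2 with wine replicate 3 (0.0865). The other pairs of unlike number were negative (−0.328 to −0.0899). Whether the numbers mark shared batches was not tested. With the replicate number as a block, 1393 features were higher and 1580 lower, and all 10 genes kept their side of the threshold. In that fit 5 of the other regulators were lower, against 3 in the reported fit. A centring of the arrays moved the median change of all features from −0.02 to −0.03 at most. At the dim end, background limits the folds of genes such as SIP4, PFK27, MIG2 and ADY2, and no probe could be called absent.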
